A study of Mus musculus with 12 samples.

Results

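Spiny projection neurons make up most of the striatum, and 7 genes known for high expression in them were followed through 12 total RNA libraries of mouse brain and liver. The genes are Drd1, Drd2, Adora2a, Ppp1r1b, Rgs9, Pde10a and Pde1b. They were found by symbol in the deposited table of 55450 genes, each as 1 row, so that 7 of 7 members entered, and all 7 passed the filter on low counts in brain. The libraries came from male mice, 7 to 9 weeks old, that were wild type or carried the genotype vaultrc5-/-, a loss of the small vault RNA gene Vaultrc5. There were 3 brain and 3 liver libraries of each genotype, numbered 1 to 3. Control libraries are called flx in their titles and wild type in their genotype label. The labels give no strain, brain region, litter or dissection, and do not say whether each library is a separate animal or whether brain and liver libraries of a number come from the same animal. P-values therefore measure the spread between these libraries, which may in part be technical.

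Projection neurons of the striatum receive dopamine from the midbrain and send inhibitory axons to the pallidum and the substantia nigra. Those of the direct pathway carry the dopamine receptor Drd1, which stimulates cyclic AMP synthesis. Those of the indirect pathway carry Drd2, which inhibits it, together with the adenosine receptor Adora2a, which stimulates it. Protein kinase A, activated by cyclic AMP, phosphorylates Ppp1r1b, which then inhibits a serine/threonine phosphatase. Rgs9 shortens G protein signals, and the phosphodiesterases Pde10a and Pde1b break down cyclic nucleotides, Pde1b when calcium and calmodulin are bound.

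In the deposited table the 7 rows carried the gene identifiers ENSMUSG00000021478.6 for Drd1, ENSMUSG00000032259.8 for Drd2 and ENSMUSG00000020178.6 for Adora2a. Those of Ppp1r1b, Rgs9, Pde10a and Pde1b were ENSMUSG00000061718.12, ENSMUSG00000020599.13, ENSMUSG00000023868.17 and ENSMUSG00000022489.6. On the GRCm38 build (GENCODE M21 annotation, 1-based) Drd1 lies on the minus strand at chr13:54051183-54055705. Drd2 lies on the plus strand at chr9:49340627-49408177, and Adora2a on the plus strand at chr10:75316877-75334784. Ppp1r1b, at chr11:98348404-98357796 on the plus strand, shares a chromosome with Rgs9, at chr11:109225355-109298129 on the minus strand. Pde10a lies on the plus strand at chr17:8525372-8986648 and Pde1b on the plus strand at chr15:103503034-103530052. All 7 are annotated as protein coding, and all 7 had exactly whole counts, with no tolerance, in each of the 12 libraries. No other annotated gene overlapped an exon of 6 of the 7. Exons of Ppp1r1b overlapped 1700003D09Rik on the opposite strand by 460 bases, and that gene had 0 to 1 counts in any library.

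The stretches just upstream of the start sites are shown for the 5 of 7 members matched to a RefSeq promoter record (GRCm38.p6). Whether they have a part in the members' variation between libraries was not tested. Each window runs from 250 to 61 bases before the RefSeq start site and overlaps no GENCODE M21 exon. The windows of Drd1, Drd2, Rgs9 and Pde1b lie outside annotated genes, and that of Pde10a lies in an intron of longer Pde10a transcripts. Sequences are written 5′ to 3′ on the strand of the gene, in lower case. Capitals mark the letters of the GC box, GGGCGG or its reverse complement CCGCCC, and those of the TATA box, TATAAA, wherever they occur in the window.
Drd1 (chr13:54055719-54055908, minus strand): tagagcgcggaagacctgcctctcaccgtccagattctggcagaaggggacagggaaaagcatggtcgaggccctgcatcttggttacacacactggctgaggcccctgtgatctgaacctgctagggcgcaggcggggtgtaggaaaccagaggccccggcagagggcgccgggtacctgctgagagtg
Drd2 (chr9:49340153-49340342, plus strand): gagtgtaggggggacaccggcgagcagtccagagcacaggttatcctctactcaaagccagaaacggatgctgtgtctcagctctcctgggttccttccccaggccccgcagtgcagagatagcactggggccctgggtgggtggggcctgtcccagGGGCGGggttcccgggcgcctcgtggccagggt
Rgs9 (chr11:109298242-109298431, minus strand): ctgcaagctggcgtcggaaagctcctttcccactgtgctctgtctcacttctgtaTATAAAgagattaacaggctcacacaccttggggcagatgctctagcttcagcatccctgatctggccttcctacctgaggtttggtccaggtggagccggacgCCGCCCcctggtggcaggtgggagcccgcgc
Pde10a (chr17:8801495-8801684, plus strand): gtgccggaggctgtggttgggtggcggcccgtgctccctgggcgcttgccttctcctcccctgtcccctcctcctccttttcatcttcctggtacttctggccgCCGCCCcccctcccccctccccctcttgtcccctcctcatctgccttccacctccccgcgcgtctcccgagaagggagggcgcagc
Pde1b (chr15:103502784-103502973, plus strand): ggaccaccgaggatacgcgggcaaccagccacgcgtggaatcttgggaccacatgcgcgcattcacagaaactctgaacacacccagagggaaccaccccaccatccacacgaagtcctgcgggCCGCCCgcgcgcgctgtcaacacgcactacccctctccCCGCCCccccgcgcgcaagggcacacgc
A GC box was present in 4 of these 5 windows (Drd2, Rgs9, Pde10a and Pde1b, the last with 2), and in 22.8% of the 32851 RefSeq promoter windows of the same length and position. TATAAA was present in Rgs9, 195 bases before the start site, and on either strand in 8.73% of all windows. The windows end 61 bases before the start site, so a TATA box nearer to it would be missed. The cyclic AMP response half-site TGACG, searched on both strands, was in 0 of the 5 windows and in 11.7% of all windows. The GC content ran from 58.9% in Rgs9 to 70% in Pde10a, against a median of 51.6%. These are matches of letters in short windows, and where a gene has several start sites the record listed first is shown. The shares over all windows count every record of a gene. Among the records not shown, that of Drd1 had a GC box, and those of Pde10a and Pde1b had none.

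Total counts ran from 14844971 to 18567381 per brain library and from 23247449 to 27155480 per liver library. A gene with 3 counts, taken as the floor, lay at 0.162 to 0.202 CPM (counts scaled to a total of 1e+06) in brain and 0.11 to 0.129 CPM in liver, which covers counting error only. Vaultrc5 itself had 4, 1 and 4 counts in wild-type brain, 33, 39 and 48 in wild-type liver and 0 in all 6 knockout libraries. Snap25, a synaptic gene of all neurons, had no fewer than 31003 and up to 40259 counts in each brain library, and at most 3 in any liver library. The brain libraries of both genotypes differed in Cbln3, a gene of cerebellar granule cells, which was at 538 CPM in wild-type library 1 and 484 CPM in knockout library 1, but at 0.772 CPM in wild-type library 2 and 0.71 CPM in knockout library 2. Levels are CPM scaled with TMM (trimmed mean of M values) within a tissue.

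The 7 striatal genes varied widely between brain libraries, and they did so together. They were high in wild-type library 3 and knockout libraries 1 and 2 and low in wild-type libraries 1 and 2 and knockout library 3, so that each genotype held both high and low libraries. Their summed level was 306, 337 and 542 CPM in wild-type libraries 1, 2 and 3 and 712, 682 and 262 CPM in knockout libraries 1, 2 and 3. In bulk tissue, fewer cells of a type and less RNA per cell cannot be told apart.

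**Figure D1:**
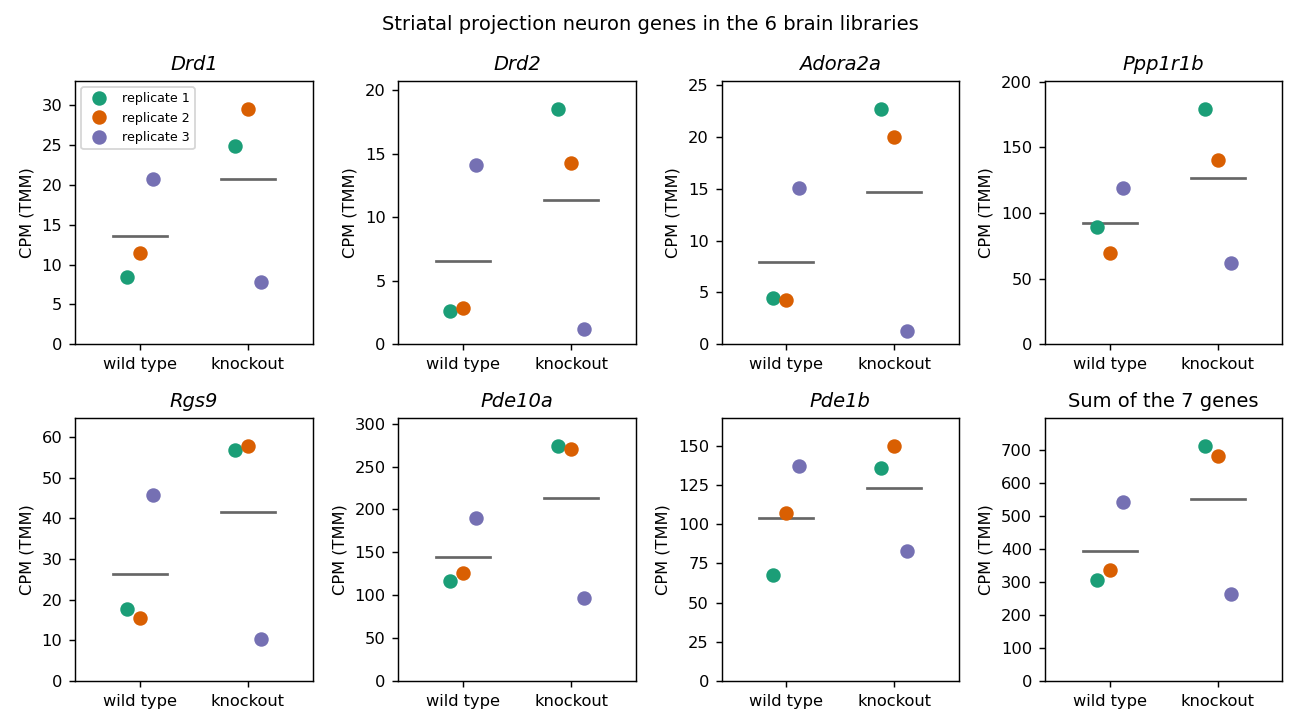
Level of each of the 7 genes, and their sum, in the 6 brain libraries (vertical axes: TMM-scaled CPM, each from 0; points: libraries, coloured by replicate number; horizontal lines: means of 3). Wild-type library 3 lies above the other wild-type libraries and knockout library 3 below the other knockout libraries for every gene, and the genotypes overlap in all 8 panels.

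Among the receptors, Drd2 and Adora2a had the widest spread of all 7 genes, and Drd1 a narrower one. Drd1, the receptor of the direct pathway, had 142, 209 and 356 counts in wild-type brain libraries 1 to 3 and 377, 499 and 126 in knockout libraries 1 to 3. These were 8.44, 11.5 and 20.8 CPM in wild-type brain and 24.9, 29.5 and 7.78 CPM in knockout brain. The highest library stood 3.79-fold above the lowest, and both were knockout libraries. Drd2, the inhibitory receptor of the indirect pathway, had 44, 52 and 241 counts (2.62, 2.87 and 14.1 CPM) in wild-type libraries and 281, 242 and 19 counts (18.5, 14.3 and 1.17 CPM) in knockout libraries. Adora2a, which is found with Drd2 in the indirect pathway, had 75, 78 and 258 counts (4.46, 4.3 and 15.1 CPM) in the wild type and 344, 338 and 21 counts (22.7, 20 and 1.3 CPM) in the knockout. The ranges were 15.8-fold for Drd2 and 17.5-fold for Adora2a, with knockout library 1 the highest and knockout library 3 the lowest for both.

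The regulator Rgs9, which speeds the return of G proteins to their inactive state, was at 17.7, 15.5 and 45.7 CPM in wild-type brain (297, 281 and 782 counts) and at 56.8, 57.8 and 10.3 CPM in knockout brain (861, 977 and 167 counts), a range of 5.6-fold. Ppp1r1b, the target of protein kinase A, was at 89.4, 69.7 and 119 CPM in the wild type (1504, 1264 and 2039 counts) and at 179, 140 and 61.6 CPM in the knockout (2711, 2364 and 998 counts). Its highest library was 2.9-fold above its lowest. For both genes the order of the libraries put wild-type library 3 and knockout libraries 1 and 2 on top.

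Among the phosphodiesterases, Pde10a was at 116, 126 and 190 CPM in wild-type libraries 1 to 3 (1952, 2288 and 3255 counts) and at 274, 270 and 97.2 CPM in knockout libraries 1 to 3 (4154, 4572 and 1574 counts). Pde1b, the calcium-dependent enzyme, was at 67.8, 107 and 137 CPM in the wild type (1140, 1949 and 2350 counts) and at 136, 150 and 82.9 CPM in the knockout (2068, 2544 and 1343 counts). The ranges were 2.82-fold and 2.22-fold. Pde1b was the member with the narrowest range, and the member whose lowest library was wild-type library 1 rather than knockout library 3.

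The standard deviation (SD) of log2(CPM + 0.05) over the 6 brain libraries was 1.64 for Drd2, 1.61 for Adora2a, 1.08 for Rgs9, 0.83 for Drd1, 0.64 for Pde10a, 0.6 for Ppp1r1b and 0.46 for Pde1b. The median over the 18075 genes tested in brain was 0.23. Compared with genes within a factor of 2 of its own mean level, Drd2 varied more than 99.1% of 4652 genes, Adora2a more than 99% of 4854 and Rgs9 more than 99.1% of 5141. Drd1, Pde10a and Ppp1r1b varied more than 97.8%, 97.8% and 97.6% of such genes, and Pde1b more than 94.5%. Scaling to library totals or to the summed counts of 7 genes of all neurons in place of TMM left the range of each member within 1.5 times its value. Per 1000 counts of those neuronal genes, the members together had 73.4, 59.6 and 115 counts in wild-type libraries 1 to 3 and 156, 127 and 55 in knockout libraries 1 to 3.

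The receptors of the direct and indirect pathways did not keep a fixed ratio. Drd1 made up 76.3% of the Drd1 and Drd2 counts in wild-type library 1 (95% exact Clopper-Pearson interval 69.6% to 82.3%), 80.1% in library 2 (74.7% to 84.7%) and 59.6% in library 3 (55.6% to 63.6%). In knockout libraries 1, 2 and 3 it made up 57.3% (53.4% to 61.1%), 67.3% (63.8% to 70.7%) and 86.9% (80.3% to 91.9%). The share was highest in knockout library 3, where both receptors were at their lowest, and lowest in knockout library 1, where Drd2 was at its highest. Within the indirect pathway the ratio was steadier, with 1.07 to 1.7 Adora2a counts per Drd2 count over the 6 libraries, against 1.34 to 6.63 Drd1 counts per Drd2 count. The ratio of Pde10a to Pde1b counts ran from 1.17 in wild-type library 2 and knockout library 3 to 2.01 in knockout library 1. The intervals cover counting error only.

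To compare genes with each other, CPM were divided by the length of the merged exons in kilobases. Over the 6 brain libraries the mean was 37.5 CPM per kilobase for Ppp1r1b, 21.1 for Pde1b, 13.9 for Pde10a, 5.31 for Rgs9, 4.73 for Drd1, 3.69 for Adora2a and 3.51 for Drd2. The order Ppp1r1b above Pde1b above Pde10a above Rgs9 held in 6 of 6 libraries for each neighbouring pair. Rgs9 exceeded Drd1 in 4 of 6 libraries, Drd1 exceeded Adora2a in 5 of 6 and Adora2a exceeded Drd2 in 4 of 6. The ranges of every neighbouring pair overlapped across libraries. By group, the mean level per kilobase of Ppp1r1b was 31.7 ± 8.5 in wild-type and 43.3 ± 20.4 in knockout brain (SD, n = 3), and that of Drd2 was 2.56 ± 2.57 and 4.45 ± 3.55.

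Whether loss of Vaultrc5 altered these genes was asked in the brain libraries with the edgeR quasi-likelihood test. None of the 7 members passed a Benjamini-Hochberg adjusted p of 0.05, and 0% of the 18075 genes tested did. The DESeq2 Wald test also called 0 genes, and 122 genes, none a member, had an unadjusted edgeR p under 0.05. The fitted log2 fold change of knockout over wild type was 0.61 ± 0.53 (SE) for Drd1, 0.8 ± 1.01 for Drd2 and 0.88 ± 0.95 for Adora2a. It was 0.66 ± 0.69 for Rgs9, 0.45 ± 0.39 for Ppp1r1b, 0.57 ± 0.4 for Pde10a and 0.24 ± 0.31 for Pde1b. The edgeR adjusted p was 1 for each gene, and the unadjusted edgeR p ran from 0.202 for Pde10a to 0.458 for Pde1b. The fitted values of all 7 lay above 0, with a median of 0.61 against -0.01 over all genes, of which 48.3% lay above 0. For no member did the genotypes separate, against 4.23% of all genes. The differences did not exceed the spread between libraries of a genotype.

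The direction depended on which libraries were compared. Between libraries of replicate number 1 the knockout was higher for all 7 genes, by 1.55 (log2 scale) for Drd1, 2.8 for Drd2, 2.33 for Adora2a, 1 for Ppp1r1b, 1.68 for Rgs9, 1.24 for Pde10a and 1.01 for Pde1b. Between those of number 2 it was again higher for all 7, by 1.35, 2.3, 2.2, 1, 1.9, 1.1 and 0.49 in the same order. Between those of number 3 the difference was -1.41 for Drd1, -3.53 for Drd2, -3.49 for Adora2a, -0.95 for Ppp1r1b, -2.14 for Rgs9, -0.97 for Pde10a and -0.73 for Pde1b. This pattern of signs, described after the values were seen, was shared by 7 of 7 members and by 11.8% of the 18075 genes, and it held for all 7 when library totals, DESeq2 size factors or the neuronal genes replaced TMM. With at least 0.5 on the log2 scale in each pair it was shared by 6 of the 7 members, Pde1b being the exception, and by 0.575% of all genes.

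**Figure D2:**
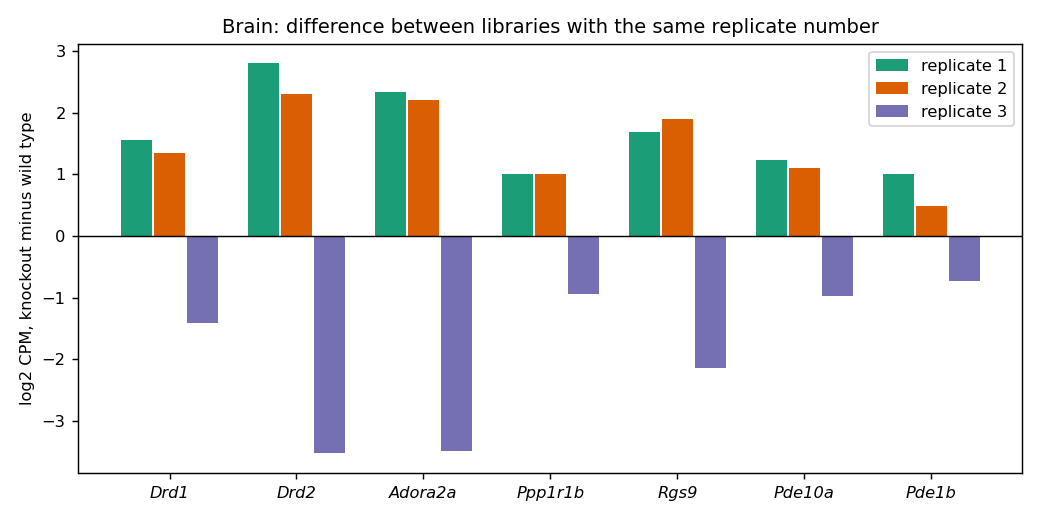
Difference in log2 CPM between the knockout and the wild-type brain library of the same replicate number, for each of the 7 genes (vertical axis: log2(CPM + 0.05), knockout minus wild type; bars: replicate numbers, 1 library against 1). Bars for numbers 1 and 2 lie above 0 and bars for number 3 below 0 for every gene, from -3.53 to 2.8 for Drd2.

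Without both libraries of number 3, an alternative added after the values were seen, the fitted log2 fold changes were 1.45 for Drd1, 2.59 for Drd2, 2.29 for Adora2a, 1.79 for Rgs9, 1.01 for Ppp1r1b, 1.17 for Pde10a and 0.72 for Pde1b, each with an edgeR adjusted p of 1. Without both libraries of number 1 the values for Drd2 and Pde1b were -0.12 and -0.07, and those of the other 5 genes ran from 0.09 to 0.22. Without both libraries of number 2 the 7 values ran from 0.1 to 0.32. When 1 library was left out, the fold changes moved by over 1.5 times: Drd2 ran from 0.25 without knockout library 1 to 2.04 without wild-type library 3, Adora2a from 0.43 to 1.74 without the same libraries, and Pde1b from 0.01 without wild-type library 1 to 0.49 without wild-type library 3. Drd1 and Rgs9 were lowest without knockout library 2 (0.28 and 0.37) and highest without wild-type library 3 (1.05 and 1.33). Ppp1r1b and Pde10a were lowest without knockout library 1 (0.12 and 0.35) and highest without knockout library 3 (0.79 and 0.92). No member was called in any of these fits.

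Other markers of striatal projection neurons behaved much like the members. Of a list of 28 such genes, 27 were in the table under the listed symbol and all 27 passed the filter in brain. None was called between genotypes, and none had an unadjusted edgeR p under 0.05. Their median log2 fold change was 0.34, and 26 of 27 were above 0. The sign pattern of the members was seen in 22 of the 27, or 81.5%, against 11.8% of all genes, and in 18 of them by at least 0.5 in each pair. The neuropeptide gene of the direct pathway Tac1, for substance P, was at 3.45, 4.63 and 11.2 CPM in wild-type brain and 11.2, 10.8 and 2.47 CPM in knockout brain. Penk, the enkephalin gene of the indirect pathway, was at 57.4, 27.2 and 105 CPM and at 114, 78.5 and 23.6 CPM. Both peptides had the members' sign pattern.

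The 5 listed genes without the sign pattern were Bcl11b, Foxp1, Ebf1, Meis2 and Tmem158. Bcl11b and Foxp1, transcription factors that cortical neurons express too, were at 59.7 to 109 and 97.8 to 186 CPM in wild-type brain and 88.6 to 139 and 151 to 207 CPM in knockout brain. Both were lowest in wild-type library 1 and highest in knockout library 2. The transcription factors Isl1, Six3, Rarb, Rxrg, Sp9 and Foxp2 did show the pattern. Six3 was at 0.773, 0.827 and 5.32 CPM in wild-type brain and 3.89, 2.84 and 1.3 CPM in knockout brain, and Rxrg, a retinoid receptor, at 1.61, 3.8 and 5.14 CPM and at 9.3, 8.58 and 1.36 CPM.

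**Figure D3:**
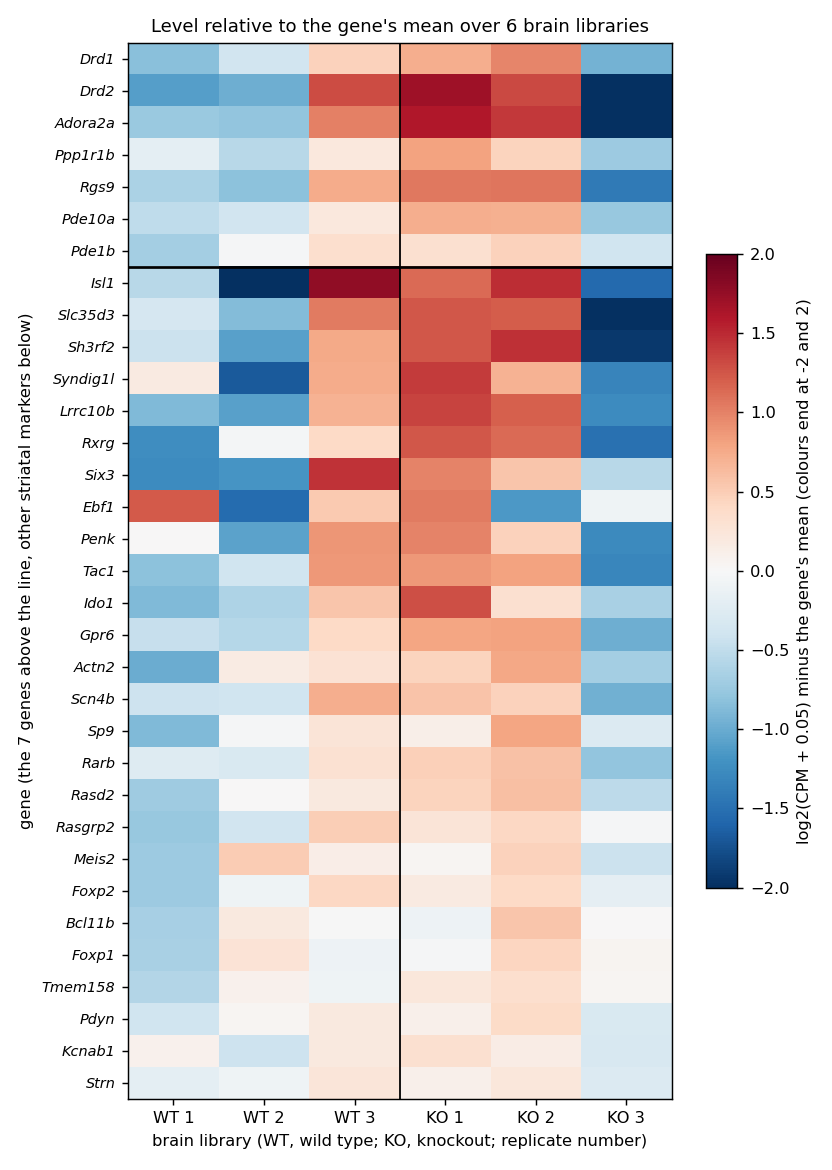
Level of the 7 genes (above the line) and 26 other striatal markers (below it, ordered by spread) in each brain library, as log2(CPM + 0.05) minus the gene's mean over the 6 libraries; columns are libraries and colour is the difference, with colours ending at -2 and 2. Most rows are red in wild-type library 3 and knockout libraries 1 and 2 and blue in knockout library 3, and Bcl11b, Foxp1, Ebf1 and Tmem158 are among those that are not.

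Genes whose pattern over the 6 brain libraries lay closest to the members' mean were ranked by the root mean square difference of centred log2 levels, among 12469 other genes with a mean of at least 5 CPM. The 3 closest were Tac1 (0.15), Lrrc10b (0.3) and Scn4b (0.31), and the median gene stood at 0.89. All 3 were on the list of striatal markers. Scn4b, a sodium channel subunit, was the most abundant of them, at 91.1, 92 and 202 CPM in wild-type brain and 181, 168 and 62.6 CPM in knockout brain. The members themselves lay at 0.15 (Rgs9) to 0.63 (Drd2) from their own mean.

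The wider dopamine and cyclic AMP pathway, as a list of 36 genes that are not members, varied less between brain libraries than the members. Of these, 34 of 36 passed the filter in brain, 0 were called in either direction between genotypes, 0 had an unadjusted edgeR p under 0.05, and 9 (26.5%) had the members' sign pattern, against 11.8% of all genes. Their median SD was 0.27 on the log2 scale against 0.83 for the members. Adcy5, the main adenylyl cyclase of striatal neurons, was among the 9, at 120, 155 and 206 CPM in wild-type brain and 212, 222 and 125 CPM in knockout brain. Gng7, a G protein subunit that works with it, was at 41, 60 and 81.7 CPM and at 91.3, 95.8 and 47.9 CPM.

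Relatives of the members on that list were divided. Pde1c and Pde7b, other phosphodiesterases, had the sign pattern, with differences of 0.02, 1 and -0.31 (log2 scale) for Pde1c and 0.68, 0.28 and -0.38 for Pde7b between libraries of numbers 1, 2 and 3. Pde1c was at 88.2, 8.32 and 45.7 CPM in wild-type brain and 89.8, 16.7 and 36.7 CPM in knockout brain, so its highest libraries were those of number 1. Adora1, Drd5, Pde1a, Pde2a, Rgs4 and Rgs8 did not have the pattern. Adora1, the inhibitory adenosine receptor found throughout the brain, was at 200 to 220 CPM in wild-type brain and 210 to 226 CPM in knockout brain. Drd5, the other receptor of the Drd1 class, was at 1.31, 2.98 and 1.69 CPM in wild-type brain and 1.06, 2.78 and 1.98 CPM in knockout brain. Drd3 and Drd4 had 0 to 3 and 1 to 7 counts in brain and did not pass the filter. Pde1a, a relative of Pde1b, was at 115, 248 and 154 CPM in wild-type brain and 128, 246 and 178 CPM in knockout brain. Rgs4 and Rgs8, which act on G proteins as Rgs9 does, were highest in different libraries from Rgs9 and from each other, Rgs4 at 400 CPM in wild-type library 2 and Rgs8 at 419 CPM in wild-type library 1. Chrm4, a muscarinic receptor of direct pathway neurons, was at 7.67 to 15.5 CPM in wild-type brain and 10.2 to 18 CPM in knockout brain without the members' pattern.

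Markers of other cells and regions differed between the same libraries, and their part in the members' variation was not tested. The 7 cerebellar markers summed to 105 to 1460 CPM in wild-type and 79.7 to 1352 CPM in knockout brain, highest in libraries 1 and lowest in libraries 2 of both genotypes. Of 2 defining markers named after their values were seen, Gabra6 had 3 and 1 counts and Barhl1 0 and 1 in libraries 2 of the wild type and the knockout. The 7 cortical excitatory markers summed to 935, 1697 and 973 CPM in wild-type brain and 1023, 1475 and 1403 CPM in knockout brain. None of the cerebellar or cortical markers (0 of 7 in each list) had the members' sign pattern. Choroid plexus markers did so in 4 of 5 cases, with sums of 249, 4.19 and 474 CPM in wild-type brain and 651, 8.28 and 10.6 CPM in knockout brain. They were low in knockout library 2, where the members were high, and Kcne2, named after its values were seen, had 0 counts in knockout libraries 2 and 3. The 5 oligodendrocyte markers summed to 3292, 2007 and 7020 CPM in wild-type brain and 2374, 3723 and 2250 CPM in knockout brain. Of the striatal interneuron markers, 2 of the 6 tested had the pattern, and the 7 listed summed to 187 to 338 CPM in wild-type and 201 to 320 CPM in knockout brain. Pvalb and Nos1, the largest of them in libraries 1, were at 136 and 145 CPM in wild-type library 1. In wild-type library 2 they were at 24.7 and 63.6 CPM. Like the cerebellar sum, both were highest in libraries 1 and lowest in libraries 2 of both genotypes. None of the 5 thalamic markers had it (183 to 432 CPM and 200 to 392 CPM). Most of that sum was Rora, at 144 to 365 CPM and highest in wild-type library 1. Lhx9 and Tcf7l2, named after their values were seen, were highest in knockout library 3, at 5.99 and 29 CPM. The remaining thalamic markers, Prkcd and Slc17a6, were highest in wild-type library 3, at 46.2 and 75.4 CPM, against 14.1 and 32.2 CPM in knockout library 3. The 7 genes of all neurons summed to 4174 to 5661 CPM in wild-type brain and 4559 to 5367 CPM in knockout brain.

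**Figure D4:**
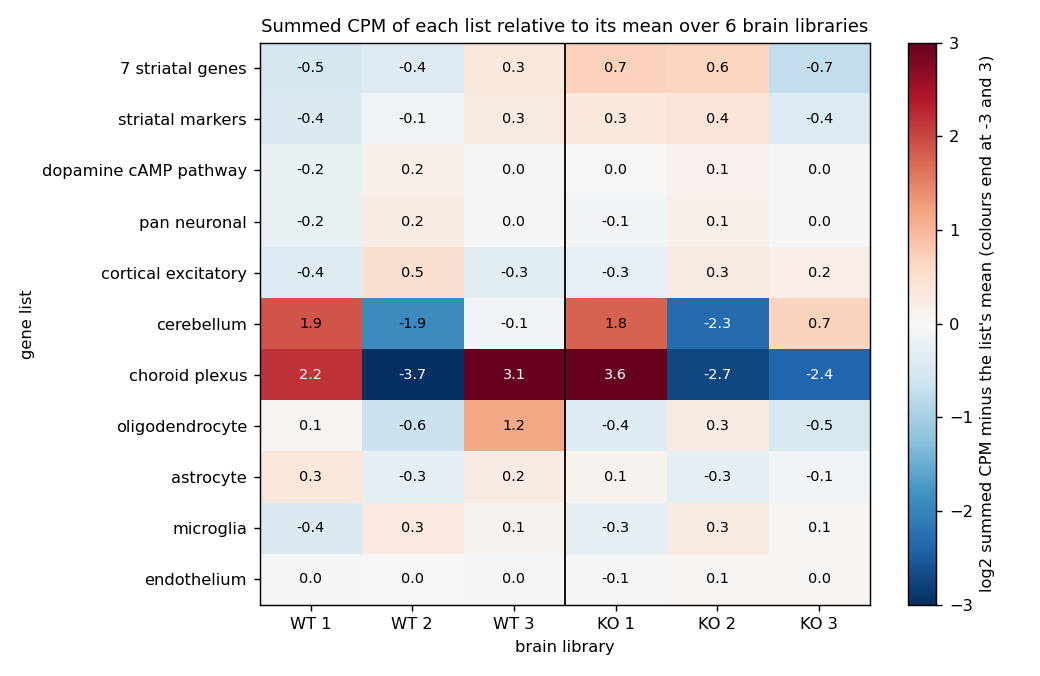
Summed CPM of the 7 striatal genes and of 10 marker or pathway lists in each brain library, as log2 minus the list's mean over the 6 libraries; columns are libraries, and numbers and colours give the difference (colours end at -3 and 3). The cerebellum, choroid plexus and oligodendrocyte lists range more widely than the 7 striatal genes and in another order of libraries, and the endothelium, pathway and neuronal lists vary least of those drawn.

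Liver, which lacks these neurons, served as the contrast. Drd1 and Drd2 had 0 counts in each of the 6 liver libraries. The other 5 members had low counts there: Adora2a 25 to 28 in the wild type and 27 to 40 in the knockout, Ppp1r1b 50 to 64 and 35 to 89, Rgs9 11 to 14 and 7 to 13, Pde10a 32 to 35 and 30 to 38, and Pde1b 20 to 33 and 21 to 47. Ppp1r1b, which also had the highest level per kilobase in liver, was there at 2.28 ± 0.376 CPM for wild-type and 2.48 ± 0.962 CPM for knockout libraries (SD, n = 3).

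All 7 members were higher in wild-type brain than in wild-type liver, where 43.9% of the 18850 genes tested were called higher in brain and 78.6% were called in either direction (edgeR). On a TMM scale common to both tissues, the mean of Drd1 in wild-type brain was at least 63.2-fold and that of Drd2 at least 30.2-fold higher than the floor of 3 counts per library in liver. Pde10a was 60.9-fold higher, Pde1b 51.3-fold, Rgs9 30.4-fold, Ppp1r1b 22.3-fold and Adora2a 4.2-fold. These folds depend on the scaling: with library totals in place of TMM they were 1.79 to 1.81 times as large (Adora2a 7.59-fold, Pde10a 110-fold), the median log2 fold change over all genes moved by 0.84, and 74.4% rather than 55.8% of called genes were higher in brain. Without brain wild-type library 3 the limit for Drd2 fell to at least 12.9-fold, Rgs9 to 19.4-fold and Adora2a to 2.34-fold. The edgeR adjusted p ran from 3.81e-07 for Pde10a to 0.00769 for Adora2a. The fitted log2 fold change of Adora2a was 2.07 ± 0.53 (SE), and 1.19 without brain wild-type library 3, with an edgeR adjusted p of 0.0321. The median fitted log2 fold change was 0.21 over all genes and 5.68 for the members, the latter resting on fitted values of Drd1 and Drd2 that depend on the prior count. With Drd1 and Drd2 at their bound, the members' median fold was at least 30.4, and at least 19.4 without brain wild-type library 3.

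In the knockout libraries, which that contrast did not use, all 7 members were again higher in brain, where 43.5% of the 18785 genes tested were called higher in brain and 78.7% in either direction. The means were at least 93.8-fold (Drd1) and at least 51.4-fold (Drd2) above the liver floor, 82.7-fold higher for Pde10a, 54.3-fold for Rgs9, 48.3-fold for Pde1b, 28.3-fold for Ppp1r1b and 6.09-fold for Adora2a. With library totals they were 1.81 to 1.83 times as large, the median over all genes moved by 0.88 on the log2 scale, and 75.1% rather than 55.3% of called genes were higher in brain. Adora2a was the exception in its spread: at 0.964 CPM on the common scale, brain knockout library 3 lay below the highest liver knockout library, at 2.24 CPM. For Adora2a the fitted log2 fold change was 2.59 ± 0.88 (SE) with an edgeR adjusted p of 0.0282. It lost the call, at log2 fold changes of 2.14 to 2.76, without brain knockout library 1 (adjusted p = 0.0893), without brain knockout library 2 (0.079) and without liver knockout library 1 (0.0948), 2 (0.0908) or 3 (0.0872), and was 3.11 with an adjusted p of 5.96e-05 without brain knockout library 3. With no filter on low counts, neither Adora2a (log2 fold change 2.62, edgeR adjusted p = 0.109) nor Drd2 (edgeR adjusted p = 0.0872) was called in the knockout libraries. The fitted fold of Drd2 is not given, since it depends on the prior count where liver is at 0.

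**Figure D5:**
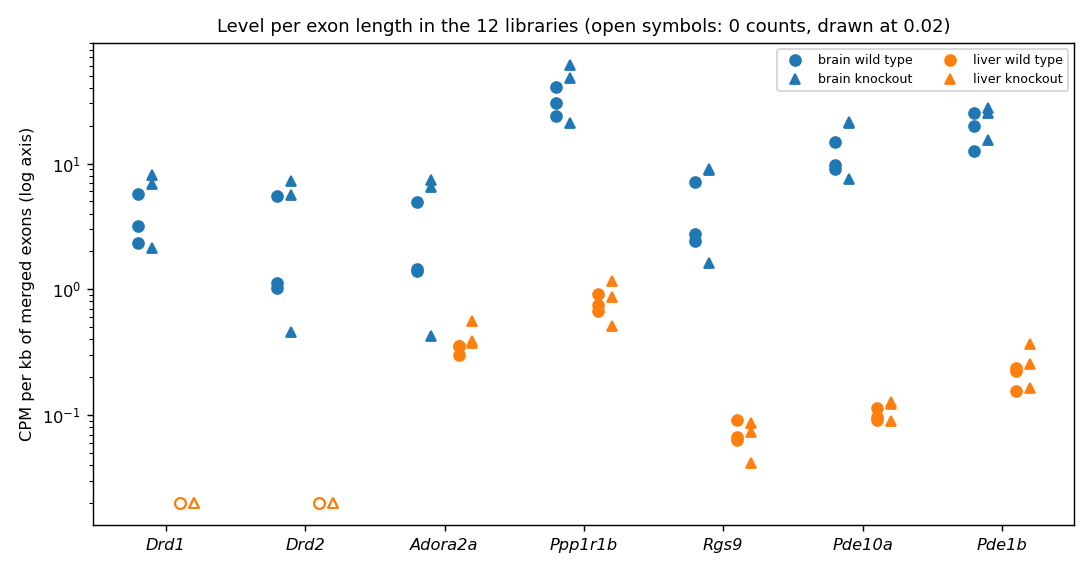
Level per kilobase of merged exons of the 7 genes in the 12 libraries (vertical axis: TMM-scaled CPM within a tissue per kilobase, log axis; circles, wild type; triangles, knockout; blue, brain; orange, liver; open symbols, 0 counts). Brain lies above liver for every gene except in brain knockout library 3 for Adora2a, which falls among the liver libraries on these separate tissue scales. On the common scale it lies at 0.964 CPM, below the liver means of 1.39 CPM (wild type) and 1.8 CPM (knockout).

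Between genotypes in liver, 5 of the 7 members could be tested and none was called, as were 0% of the 15329 genes in the edgeR fit, which had no replicate block. Of all genes, 536, none a member, had an unadjusted edgeR p under 0.05, the DESeq2 Wald test called 10 and the fit with the replicate number as a block called 2. The liver log2 fold changes of knockout over wild type were 0.38 ± 0.27 (SE) for Adora2a, 0.35 ± 0.35 for Pde1b, 0.15 ± 0.25 for Pde10a, 0.13 ± 0.31 for Ppp1r1b and -0.14 ± 0.41 for Rgs9, with edgeR adjusted p-values of 0.992 to 0.997. The knockout effect in brain minus that in liver, tested as an interaction over all 12 libraries, was 0.54 ± 1.14 (SE) for Adora2a, 0.84 ± 1.08 for Rgs9, 0.44 ± 0.55 for Pde10a, 0.34 ± 0.56 for Ppp1r1b and -0.08 ± 0.49 for Pde1b. None was called in the edgeR fit (adjusted p = 1 for each), as were 0% of 20141 genes, of which 489, none of them 1 of these 5, had an unadjusted p under 0.05. The DESeq2 Wald test called 1 gene, not a member. No such difference was computed for Drd1 and Drd2, which had no counts in liver.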

How the data were processed

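The authors deposited expected counts per gene for 12 libraries of total RNA, not normalized and not pooled. Per the labels' protocols, TRIzol was used to isolate the RNA, which was treated with DNase, depleted of ribosomal RNA, made into stranded ligation libraries and read single-end. Per the submitters' processing notes, cutadapt, STAR and the mm10 build were used. Which tool counted reads, and whether by strand, is not given in the sources used here. Per library, 5.06% to 5.71% of its 55450 values, zeros included, were not exactly whole (no tolerance). Counts were rounded. All 55450 identifiers matched GENCODE M21.

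Comparisons used edgeR 4.0.16 (R 4.3.3): TMM, filterByExpr by group (minimum count 10, minimum total 15), the robust quasi-likelihood F-test and Benjamini-Hochberg adjustment over all genes tested at 0.05. SE is the absolute log2 fold change over the square root of F. Alternatives were DESeq2 1.42.0 (test or size factors), library totals, other filters, robust estimation off, all libraries in 1 fit, a replicate block and each library left out. The fits were tested on simulated data. The 12 replicate pairs within groups differed by 27.2 to 228 times the chi-square expected from counting, so each library was 1 replicate. Same-numbered liver libraries of the 2 genotypes deviated together (correlations 0.29, 0.29 and 0.36 across genes). The main liver fit had no replicate block and so did not use this pairing. The fit with the block is an alternative, and it called no member in liver.

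The named genes were the 7 members, genes of the striatal and pathway lists, at most 3 of each other marker list, the 5 closest profiles, and Vaultrc5, Alb and Snap25; some of these are not reported here. The members and lists were chosen with earlier results of these data known.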

Additional observations from a re-analysis of the deposited data

How the results depend on the processing

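Counting precision was lowest for Drd1 and Drd2 in liver, at 0 counts, and in brain for Drd2 and Adora2a in knockout library 3, at 19 and 21 counts. In brain, all 56 member fold changes computed with every library kept and all 42 with 1 library left out kept their direction and stayed uncalled, and the count of called genes was 0 in each. In wild-type brain against liver, 14218 to 15053 genes were called with 1 library left out, and 7 members in each fit. In the knockout contrast these were 14326 to 14773 genes and 6 to 7 members. The liver knockout count of 0 became 10 with the DESeq2 Wald test, 4 with no low-count filter, 2 with the replicate block and 0 to 1 with 1 library left out. The cause was not tested. The interaction count of 0 became 1 with the DESeq2 Wald test and 2 with the replicate block. With 1 library left out, the liver log2 fold change ran from -0.37 to 0.11 for Rgs9 and from -0.18 to 0.39 for Ppp1r1b, and the interaction from -0.36 to 0.23 for Pde1b, 0.08 to 1.35 for Adora2a, 0.46 to 1.46 for Rgs9, 0.01 to 0.67 for Ppp1r1b and 0.18 to 0.75 for Pde10a. In brain without both libraries of 1 number, Drd2 ran from -0.12 to 2.59 and Pde1b from -0.07 to 0.72.

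Same-numbered brain libraries of the 2 genotypes correlated at 0.58, 0.59 and 0.01 in their deviations: numbers 1 and 2 deviated together and number 3 did not, so the numbers were not taken to pair the brain libraries, which needed over 0.1 in each pair. Brain with liver libraries of a number correlated at -0.01 to 0.06. With the replicate block, 0 genes were called in brain, 14496 and 14396 in the tissue contrasts of wild type and knockout, and Adora2a in the knockout contrast had an edgeR adjusted p of 0.103. No other member's call changed with the block.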

Other observations

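Markers of cholinergic neurons, which include a few interneurons of the striatum, stood apart in wild-type brain library 3. Chat and Slc5a7 are named here after their values were seen. They do not tell striatal cholinergic neurons from those of other brain regions. Chat, which makes acetylcholine, had 9, 3 and 122 counts in wild-type brain libraries 1, 2 and 3 and 19, 19 and 7 in knockout libraries 1, 2 and 3. Slc5a7, the choline transporter, had 25, 18 and 458 counts and 53, 58 and 12 counts. In CPM, Slc5a7 was at 26.8 in wild-type library 3 and at 0.741 to 3.5 in the other 5. Both genes had the sign pattern of the projection neuron genes, higher in the knockout for numbers 1 and 2 and lower for number 3, but were not highest in the same libraries. The oligodendrocyte gene Mbp was also highest in wild-type library 3, at 3432 CPM, against 987 to 1805 CPM in the other 5. Th, the enzyme of dopamine synthesis, was at 0.606 to 2.45 CPM in wild-type and 0.309 to 2.24 CPM in knockout brain.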
